A study of Homo sapiens with 8 samples.

Results

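The joint exposure of ARPE-19 cells to diesel particulate and fucoidan was set against vehicle in 4 of the 8 RNA-seq libraries of a study with 4 groups, the 2 combination libraries and the 2 control libraries, all chosen by their labels. ARPE-19 is an established human cell line derived from retinal pigment epithelium. Combination cells received 200 µg/mL of particulate (standard reference material 1650b, which the labels also call PM2.5) and 400 µg/mL of fucoidan from Fucus vesiculosus at once, and control cells received PBS. Particulate cells (2 libraries, 200 µg/mL) and fucoidan cells (2 libraries, 400 µg/mL) received 1 agent each, and all groups were collected 24 h after exposure began, having been grown in medium with 10% fetal bovine serum to about 80% confluence. The particulate had been suspended in DMSO before dilution in PBS. No group received DMSO without particulate, so the effects of particulate and solvent cannot be told apart. All values come from 1 cell line.

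The retinal pigment epithelium is the pigmented cell layer behind the photoreceptors; it recycles visual pigment, engulfs shed photoreceptor membrane and lays down part of the basement membrane below it. Diesel particulate is soot that carries polycyclic aromatic compounds and metals, and cells are known to meet such material with the aryl hydrocarbon receptor, which switches on xenobiotic-metabolising enzymes, and with NRF2, which switches on antioxidant genes. Fucoidan is a sulfated polysaccharide of brown algae that binds many heparin-binding proteins, and the crude grade used here is a mixture.

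Libraries held 16130053 and 16721285 counts in the combination group, 16841464 and 15714165 in the particulate group, 12993565 and 17019284 in the fucoidan group, and 14359672 and 16097315 in the control group. The combination libraries differed from each other more than any other replicate pair: 11.3% of the 15010 genes tested lay 2-fold or more apart between them, against 3.55% in the particulate pair, 1.55% in the fucoidan pair and 1.61% in the control pair. Mitochondrially encoded transcripts took 2.43% and 2.62% of counts with the combination and 1.52% and 2.27% in control cells. Of the 15 markers of retinal pigment epithelium, 10 had enough reads to be tested. The visual-cycle isomerase gene RPE65 and the melanin enzyme gene DCT were at 0 in both combination and both control libraries, and the melanin enzyme gene TYR had 0 reads in each combination library and 3 and 4 reads in the control libraries. The summed level of the markers was 124 to 135 CPM (normalised read counts, scaled by sequencing depth) with the combination and 448 to 462 CPM in control cells. Most of the control sum was RDH10, with 3881 and 4220 reads in control cells and 737 and 803 with the combination. Not every marker was lower: BEST1 had 59 and 52 reads with the combination and 10 and 5 in control cells, and MERTK had 22 and 17 against 12 and 8. The exons of BEST1 overlap those of FTH1, a ferritin gene that also rose, on the opposite strand. Whether strand was used in counting is not known, so the count of BEST1 is uncertain. Leukocyte markers summed to 0.223 to 0.267 CPM with the combination and 0.256 to 0.425 CPM in control cells, with CD163 and CD3E at 0 in all 8 libraries. In bulk RNA, fewer cells expressing a gene and less of its RNA per cell cannot be told apart.

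Combination cells differed from control cells at 2556 of the 15010 genes (17%), with 1226 higher (8.17%) and 1330 lower (8.86%), at an adjusted p under 0.05 in edgeR's quasi-likelihood test with Benjamini-Hochberg adjustment. Of these, 1386 differed 2-fold or more, 563 higher and 823 lower, and the median log2 fold change of all genes tested was 0.02. The test used 1 estimate of spread per gene, shared by all 4 groups. Because the combination pair was the least even, the SE and p of a gene can understate the spread of that pair. The number depended on single libraries: it was 428 without control replicate 1, 618 without control replicate 2, 1533 without fucoidan replicate 1, 1526 without fucoidan replicate 2 and 4999 without combination replicate 2. Without combination replicate 1 it was 2446. The genes called the same way both without combination replicate 1 and without combination replicate 2 numbered 1692 (729 higher and 963 lower), and 393 (99 higher and 294 lower) were called in all 8 fits that each left out 1 library. For named genes that lost their call in at least 1 of these 8 fits, the highest adjusted p of those fits is given; the library left out was control replicate 1, control replicate 2 or either, unless others are named. List counts of the full fit are read against the 8.17% and 8.86% of all genes. These shares do not apply to list counts from fits that left out 1 library, where the number called over all genes moved as well. Those counts show only how far a list count depended on single libraries.

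**Figure D1:**
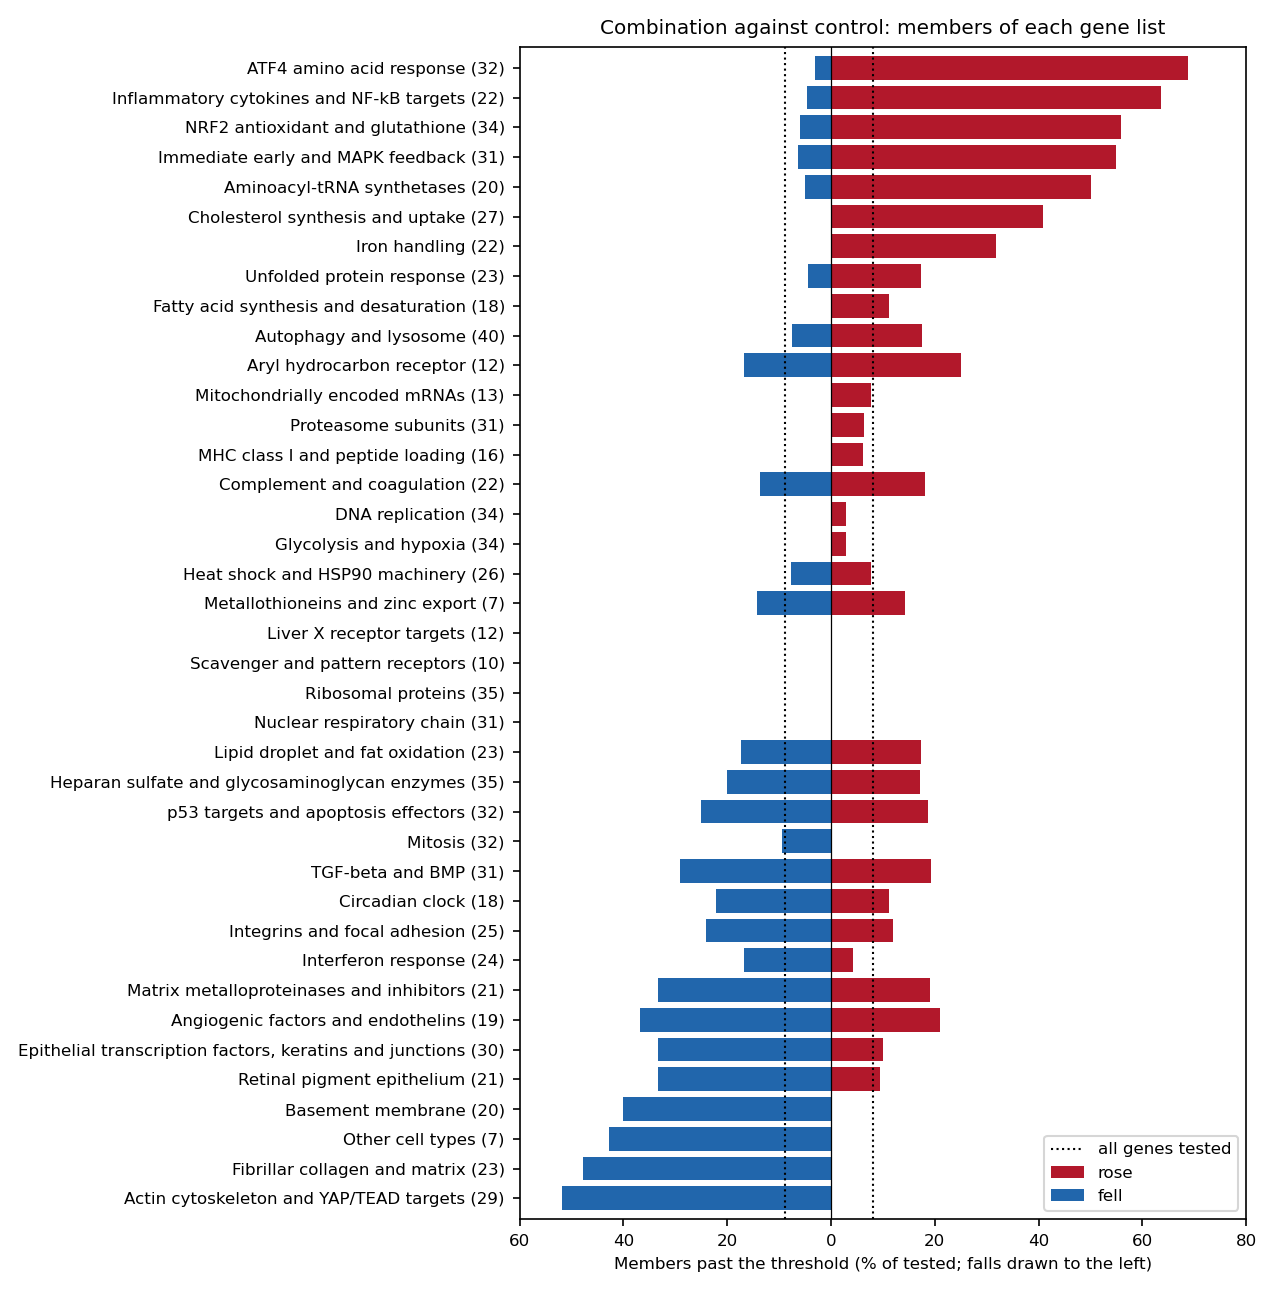
Percent of the tested members of each gene list that were higher (right, red) or lower (left, blue) in combination than in control cells at an adjusted p under 0.05, with the number of tested members in brackets; dotted lines mark the 8.17% and 8.86% of all genes tested. The lists of the amino acid response, inflammation and antioxidant defence lie at the top, with 22 of 32, 14 of 22 and 19 of 34 members higher, and the list of actin genes lies at the bottom, with 15 of 29 members lower.

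The largest increases included the lipid gene ANGPTL4, the cystine transporter gene SLC7A11 and several genes of inflammation. Of 23 tested genes of the lipid droplet and fat oxidation list, which holds ANGPTL4, 4 rose and 4 fell (median log2 fold change 0.06). ANGPTL4, a secreted inhibitor of lipoprotein lipase, stood at 509.6 and 55.2 CPM with the combination, against 0.708 and 0.511 CPM in control cells (log2 fold change 8.85 ± 1.16, adjusted p = 0.00143; ± SE, n = 2 libraries a group). SLC7A11 (chr4:138164097-138242349 in GRCh38), the cystine transporter that feeds glutathione synthesis, stood at 227 and 195 CPM with the combination, against 9.70 and 9.78 CPM in control cells (log2 fold change 4.44 ± 0.23, adjusted p = 1.99e-05). Both combination libraries were far above both control libraries for these genes, but for ANGPTL4 replicate 1 was the higher of the combination pair by a wide margin, while for SLC7A11 the pair was close. CHAC1, which encodes an enzyme that degrades glutathione, stood at 36.8 and 13.7 CPM with the combination, against 0.496 and 0.703 CPM in control cells (log2 fold change 5.36 ± 0.62, adjusted p = 0.000752). IL6R, the interleukin-6 receptor gene, stood at 31.2 and 7.13 CPM with the combination, against 0.708 and 0.639 CPM in control cells (log2 fold change 4.81 ± 0.72, adjusted p = 0.00282). CSF2, which encodes the growth factor GM-CSF, stood at 7.997 and 9.81 CPM with the combination, against 0.496 and 0.447 CPM in control cells (log2 fold change 4.22 ± 0.29, adjusted p = 9.25e-05). CSF2 had 7 reads in each control library, so few that its SE is smaller than counting error alone would give. None of these groups overlapped, but a gene was chosen among the largest changes only if its groups did not overlap. PTX3, OSGIN1 and SPRY4 also rose, by log2 fold changes of 3.94, 3.67 and 3.58. IFITM10 rose on the log2 scale by 3.72, with 30.3 and 2.23 CPM with the combination, against 1.56 and 0.895 CPM in control cells. IFITM10 lost its call when a library was left out (adjusted p up to 0.291). The call of IFITM10 was also lost without combination replicate 1 or either particulate library or either fucoidan library.

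The largest decreases were in an epithelial transcription factor, keratins and secreted factors. ELF3 (chr1:202007945-202017188 in GRCh38), an epithelial ETS transcription factor, was at 0.267 and 0.167 CPM with the combination, against 30.7 and 22.4 CPM in control cells (log2 fold change -6.91 ± 0.34, adjusted p = 3.05e-05). It rested on 4 and 3 reads in the combination libraries and 433 and 350 reads in the control libraries. With so few reads the SE of ELF3 is smaller than counting error alone would give and overstates the precision. ELF3-AS1, which overlaps ELF3 on the opposite strand, also fell (log2 fold change -5.72), and reads of the 2 genes could not be told apart without knowing whether strand was used in counting. KRT13, a keratin of stratified epithelium, was at 0.666 and 0.390 CPM with the combination, against 36.1 and 28.5 CPM in control cells (log2 fold change -5.94 ± 0.43, adjusted p = 0.000108). The groups were fully separate for each of these genes, as the rule that chose the largest changes required. DIO2, the deiodinase that activates thyroid hormone, had 14.6 and 73.3 CPM with the combination, against 1284 and 1298 CPM in control cells (log2 fold change -4.87 ± 0.60, adjusted p = 0.00106). PTGIS, prostacyclin synthase, stood at 13.4 and 29.4 CPM with the combination, against 422 and 363 CPM in control cells (log2 fold change -4.19 ± 0.33, adjusted p = 0.000141). In both genes combination replicate 1 was the lower of its pair. Neither pair reached the control range, which the same rule required. ANGPTL7, CRB2 (an apical polarity protein), KRT33B, HSD17B2 (a steroid dehydrogenase) and EDN2 (an endothelin) also fell, with log2 fold changes of -5.31, -4.82, -4.44, -4.24 and -5.64. In the combination libraries EDN2 had only 3 and 2 reads and ANGPTL7 12 and 18 reads, so counting error limits both fold changes.

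**Figure D2:**
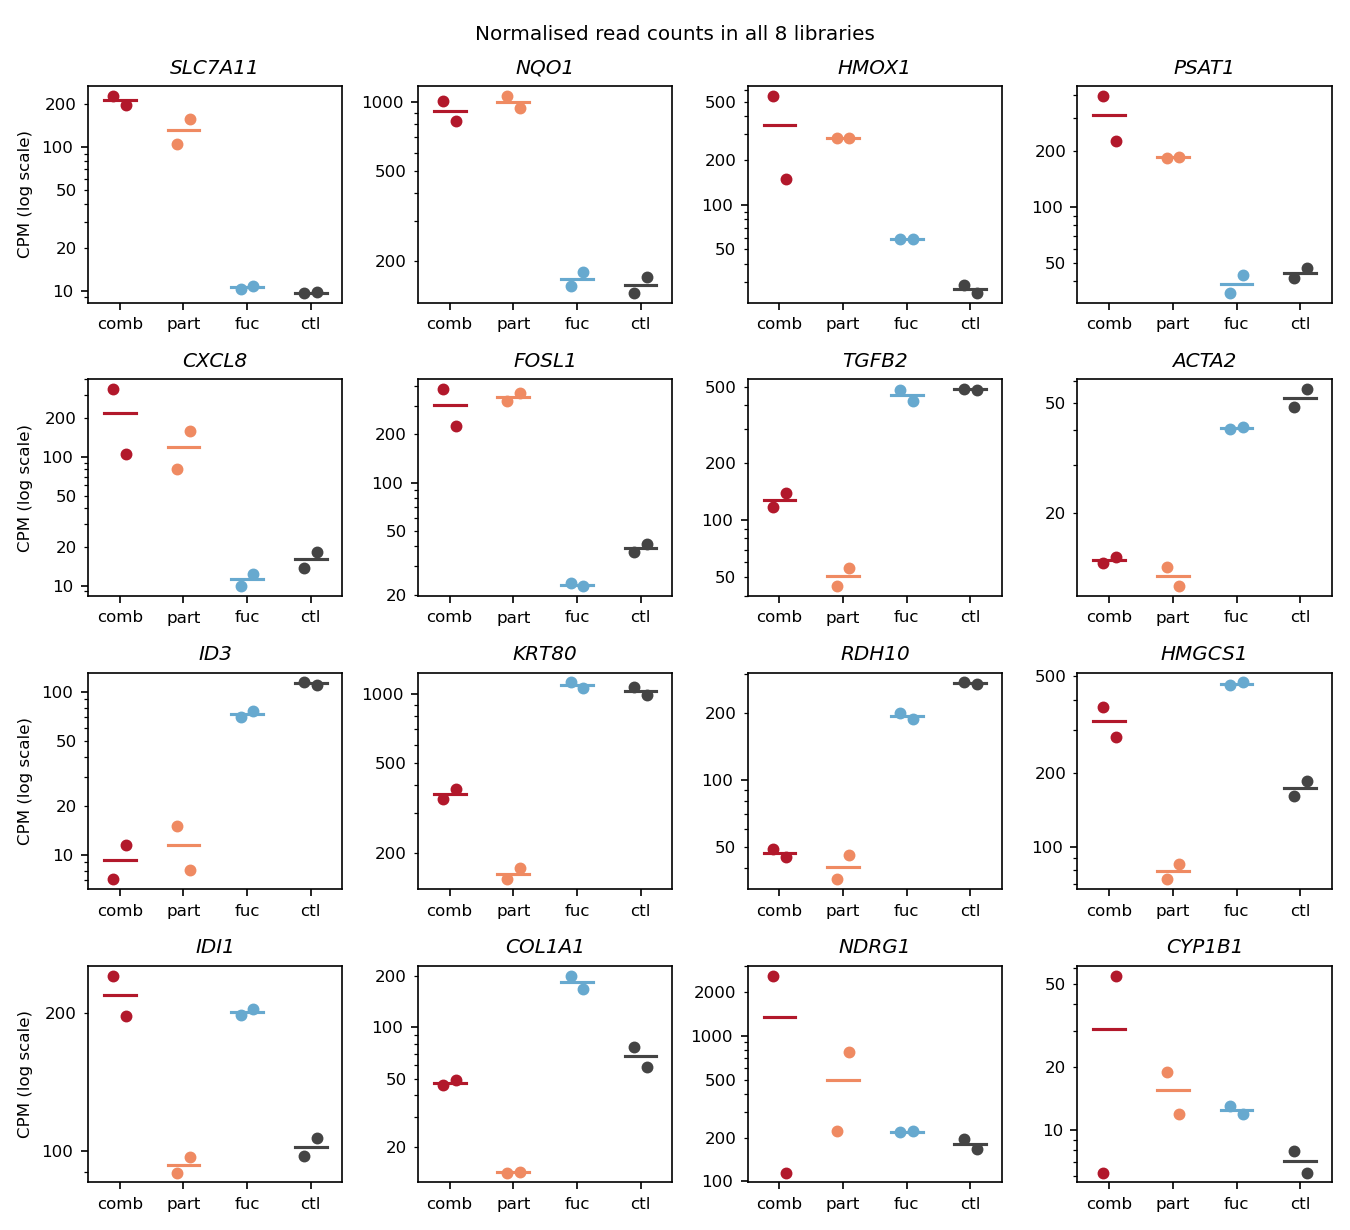
Normalised read counts (CPM, log scale) of 16 genes in the libraries of each group, from left to right combination (comb), particulate (part), fucoidan (fuc) and control (ctl); each point is 1 library and each bar the mean of 2. SLC7A11 stood at 195 to 227 CPM with the combination and below 10 CPM in control cells, whereas NDRG1 and CYP1B1 were far apart between the 2 combination libraries.

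Genes of the antioxidant response were mostly higher with the combination. Of 34 tested members of the NRF2 and glutathione list, 19 rose and 2 fell, and the median was 0.81 on the log2 scale. Leaving out 1 library gave 12 to 23 that rose, the lowest without control replicate 1, and none fell with either control library left out. NQO1, a quinone reductase, stood at 1008 and 824 CPM with the combination, against 146 and 171 CPM in control cells (log2 fold change 2.53 ± 0.17, adjusted p = 9.02e-05). TXNRD1, thioredoxin reductase, stood at 2502 and 2817 CPM with the combination, against 830.5 and 912 CPM in control cells (log2 fold change 1.61 ± 0.14, adjusted p = 0.000231). In each, both combination libraries were well above both control libraries. GCLM, the modifier subunit of the enzyme that starts glutathione synthesis, stood at 104 and 81.5 CPM with the combination, against 19.8 and 20.4 CPM in control cells (log2 fold change 2.20 ± 0.19, adjusted p = 0.000214). HMOX1, heme oxygenase, stood at 547 and 149 CPM with the combination, against 28.9 and 25.4 CPM in control cells (log2 fold change 3.68 ± 0.49, adjusted p = 0.00158). HMOX1 was the less even of the pair, with combination replicate 1 above replicate 2. PGD and TALDO1, enzyme genes of the pentose phosphate pathway, rose on the log2 scale by 0.61 and 0.69. The 2 members that fell were GPX4, the peroxidase that reduces lipid hydroperoxides (log2 fold change -0.69), and PRDX6, a peroxiredoxin (log2 fold change -0.60); SLC3A2, the partner chain of SLC7A11, rose on the log2 scale by 1.70. PGD, TALDO1, GPX4, PRDX6 and SLC3A2 lost their calls when a library was left out (adjusted p up to 0.17, 0.236, 0.19, 0.168 and 0.101). The call of TALDO1 or PRDX6 was also lost without combination replicate 1 or either fucoidan library; that of GPX4 was also lost without either fucoidan library.

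Of 22 tested iron genes 7 rose, none fell and 15 did not pass the test, with 3 to 9 rising when 1 library was left out and 3 with either control library left out. FTL, the ferritin light chain gene, stood at 4549 and 3799.6 CPM with the combination, against 1197 and 1200.4 CPM in control cells (log2 fold change 1.80 ± 0.16, adjusted p = 0.000231). The ferritin heavy chain gene FTH1 stood at 9320.2 and 7213 CPM with the combination, against 3122 and 3143 CPM in control cells (log2 fold change 1.40 ± 0.18, adjusted p = 0.0014). Both combination libraries lay above both control libraries for the ferritin genes, which have many processed pseudogenes, so that their counts are uncertain where the handling of reads with several matches is not known. ALAS1, the first enzyme of heme synthesis, rose on the log2 scale by 1.01 and SLC39A14, a zinc and iron importer, by 1.23. ALAS1 and SLC39A14 lost their calls when a library was left out (adjusted p up to 0.0581 and 0.163).

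Promoter sequence was read for genes that had a RefSeq promoter window, which runs from 250 bases before to 50 bases after the gene start (GRCh38.p14). The core of the antioxidant response element, TGACNNNGC on either strand, was present in 16.1% of 27305 genes with a window and in 19.5% of the tested genes with one. It was present in 9 of the 24 members of the NRF2 list that had a window, and in 7 of the 14 such members that rose. The windows of GCLM and SLC3A2 are shown because both genes rose and each window holds the letters once (capitals), in GCLM on the opposite strand; where the central letters are TCA, as in SLC3A2, the match contains the AP-1 letters TGANTCA.
GCLM promoter (chr1:93909381-93909680, minus strand): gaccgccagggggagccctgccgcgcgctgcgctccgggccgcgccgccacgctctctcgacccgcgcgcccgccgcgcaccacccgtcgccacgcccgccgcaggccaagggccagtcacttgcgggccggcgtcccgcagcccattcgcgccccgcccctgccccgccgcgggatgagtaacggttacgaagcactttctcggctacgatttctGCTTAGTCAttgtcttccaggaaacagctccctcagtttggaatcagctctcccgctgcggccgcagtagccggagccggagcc
SLC3A2 promoter (chr11:62881449-62881748, plus strand): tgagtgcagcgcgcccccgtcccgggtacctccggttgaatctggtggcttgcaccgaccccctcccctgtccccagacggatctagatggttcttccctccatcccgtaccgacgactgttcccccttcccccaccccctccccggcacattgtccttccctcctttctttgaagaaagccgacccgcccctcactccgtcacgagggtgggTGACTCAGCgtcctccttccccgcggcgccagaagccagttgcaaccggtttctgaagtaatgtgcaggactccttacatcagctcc
SLC3A2 had 1040.3 and 414 CPM with the combination, against 232 and 215 CPM in control cells (log2 fold change 1.70 ± 0.34, adjusted p = 0.0105), and the values of GCLM stand above. A match of letters is a description of the window and does not show that a factor binds there.

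Amino acid response genes formed the list with the largest share of increases. ATF4 is a transcription factor whose translation increases under amino acid shortage or other stress, and its targets make and import amino acids. Of 32 tested members, 22 rose and 1 fell, and the median log2 fold change was 1.16. Without combination replicate 1 there were 16 that rose, without combination replicate 2 there were 28, and without control replicates 1 and 2 there were 3 and 6. PSAT1, of serine synthesis, stood at 395 and 227 CPM with the combination, against 41.6 and 46.96 CPM in control cells (log2 fold change 2.81 ± 0.26, adjusted p = 0.00024). CEBPG, a transcription factor gene, stood at 119 and 64.2 CPM with the combination, against 23.5 and 24.6 CPM in control cells (log2 fold change 1.92 ± 0.25, adjusted p = 0.00151). MTHFD2, a mitochondrial folate enzyme, stood at 424 and 168 CPM with the combination, against 58.4 and 68.5 CPM in control cells (log2 fold change 2.22 ± 0.36, adjusted p = 0.00404). In all 3 genes combination replicate 1 was above replicate 2, and both were above the controls. Of the 32 members, 31 were higher in combination replicate 1 than in replicate 2. TRIB3, a pseudokinase, had 279 and 65.3 CPM with the combination, against 17.6 and 16.7 CPM in control cells (log2 fold change 3.32 ± 0.54, adjusted p = 0.00424). DDIT3, which encodes the stress factor CHOP, had 73.8 and 31.9 CPM with the combination, against 18.1 and 17.5 CPM in control cells (log2 fold change 1.57 ± 0.33, adjusted p = 0.0126). The combination libraries differed from each other for both, and neither reached down to the controls. Only 132 reads with the combination and 2 reads in control cells were assigned to ASNS, asparagine synthetase (ratio 59.6, 95% exact interval 16.2 to 498 from counting error alone), and a second annotated gene shares its exons on the same strand, so its count is uncertain. The member that fell was SLC38A2, a neutral amino acid transporter (log2 fold change -1.70). MTHFD2, TRIB3, DDIT3, ASNS and SLC38A2 lost their calls when a library was left out (adjusted p up to 0.0669, 0.0635, 0.114, 0.0928 and 0.166). The call of SLC38A2 was also lost without either combination library or either fucoidan library.

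Aminoacyl-tRNA synthetase genes, which encode the enzymes that charge tRNAs, showed a similar direction, with 10 of 20 higher and 1 lower (median log2 fold change 0.56). Leaving out 1 library gave 1 to 12 higher, with 1 and 3 without control replicates 1 and 2. MARS1 stood at 296 and 229 CPM with the combination, against 104 and 115 CPM in control cells (log2 fold change 1.26 ± 0.16, adjusted p = 0.0014), with an opposite-strand overlap with DDIT3. YARS1 stood at 199 and 129 CPM with the combination, against 65.3 and 70.2 CPM in control cells (log2 fold change 1.28 ± 0.21, adjusted p = 0.00464). Groups did not overlap for either gene. QARS1 fell (log2 fold change -0.47). YARS1 and QARS1 lost their calls when a library was left out (adjusted p up to 0.0719 and 0.259). The call of QARS1 was also lost without combination replicate 2 or either fucoidan library.

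The amino acid response element core, TGATGNAA on either strand, was found in 4.46% of all genes with a promoter window and in 2.67% of the tested ones. Of the ATF4 list, 8 of the 28 members with a window held it, 7 of them among the 20 that rose (ASNS, ATF3, CEBPG, CHAC1, JDP2, SLC1A4 and SLC7A1). CEBPG and CHAC1 are shown because both passed the test in all 8 fits that left out 1 library; the capitals mark the match, which in CHAC1 is on the opposite strand.
CEBPG promoter (chr19:33373863-33374162, plus strand): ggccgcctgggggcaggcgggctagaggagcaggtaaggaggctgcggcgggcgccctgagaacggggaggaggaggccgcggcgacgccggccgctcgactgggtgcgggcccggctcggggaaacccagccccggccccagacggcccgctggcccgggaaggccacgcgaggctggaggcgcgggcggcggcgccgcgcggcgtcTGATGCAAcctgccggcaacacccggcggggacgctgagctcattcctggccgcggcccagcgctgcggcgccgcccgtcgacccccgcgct
CHAC1 promoter (chr15:40953221-40953520, plus strand): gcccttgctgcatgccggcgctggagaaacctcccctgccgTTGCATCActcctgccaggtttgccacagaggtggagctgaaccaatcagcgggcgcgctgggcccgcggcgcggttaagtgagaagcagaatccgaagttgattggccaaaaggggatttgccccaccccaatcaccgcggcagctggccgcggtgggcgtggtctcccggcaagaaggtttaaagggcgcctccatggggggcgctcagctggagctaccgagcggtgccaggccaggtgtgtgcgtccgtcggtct
The unfolded protein response and heat shock lists had smaller shares of called members than the ATF4 list. Of 23 tested genes of the unfolded protein response, 4 rose, among them the sensor gene ERN1 (log2 fold change 1.92) and its substrate XBP1 (log2 fold change 0.81), and CALR, an endoplasmic reticulum chaperone, fell (log2 fold change -0.65); no member rose without control replicate 1 or without control replicate 2. Of 26 tested heat shock genes 2 rose and 2 fell, the small heat shock proteins CRYAB (779.6 and 795 CPM with the combination and 2010.4 and 2178 CPM in control cells; log2 fold change -1.41 ± 0.15, adjusted p = 0.000529) and HSPB1 (220.1 and 196 CPM with the combination and 507 and 453 CPM in control cells; log2 fold change -1.21 ± 0.18, adjusted p = 0.00278) being the 2 that fell; 0 to 5 rose and 2 to 4 fell when 1 library was left out, with 0 rising without control replicate 1. ATF3, JDP2, SLC1A4, SLC7A1, ERN1, XBP1 and CALR lost their calls when a library was left out (adjusted p up to 0.136, 0.201, 0.0736, 0.178, 0.1, 0.237 and 0.121). The call of JDP2 was also lost without combination replicate 1 or either particulate library or either fucoidan library; that of SLC7A1 was also lost without combination replicate 1 or either fucoidan library; that of XBP1 was also lost without combination replicate 1 or particulate replicate 2 or either fucoidan library.

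Inflammatory genes were mostly higher with the combination. Of 22 tested members of the cytokine and NF-kB list 14 rose and 1 fell, and the median log2 fold change was 1.82. A further 9 members had too few reads. Without control replicate 1 or without control replicate 2 the number that rose was 5, and without combination replicate 1 it was 11. CXCL8, the neutrophil chemokine interleukin-8, stood at 336 and 105 CPM with the combination, against 13.7 and 18.3 CPM in control cells (log2 fold change 3.78 ± 0.53, adjusted p = 0.00203). CXCL3, a related chemokine, stood at 25.1 and 11.6 CPM with the combination, against 2.27 and 2.36 CPM in control cells (log2 fold change 2.98 ± 0.37, adjusted p = 0.00107). CSF1, the macrophage growth factor gene, stood at 112 and 104 CPM with the combination, against 52.5 and 44.3 CPM in control cells (log2 fold change 1.16 ± 0.16, adjusted p = 0.00167). CSF1 was even between the combination libraries, whereas CXCL8 and CXCL3 were higher in replicate 1. No group overlapped, which for CXCL8 the rule that chose the largest changes required. TNFAIP3, which encodes the NF-kB inhibitor A20, had 80.6 and 11.4 CPM with the combination, against 4.11 and 2.17 CPM in control cells (log2 fold change 3.88 ± 0.88, adjusted p = 0.0181). TNFAIP3 lost its call when a library was left out (adjusted p up to 0.149). Members that did not pass included IL6, with 0.933 and 1.84 CPM with the combination, against 2.12 and 1.85 CPM in control cells (adjusted p = 0.425), and CCL2, a monocyte chemokine gene, with 10.6 and 84.9 CPM with the combination, against 107 and 90.4 CPM in control cells (adjusted p = 0.291). IL18 fell (100.3 and 110.3 CPM with the combination, against 215 and 225 CPM in control cells; log2 fold change -1.06 ± 0.17, adjusted p = 0.00435).

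Genes switched on by MAP kinase signalling, with the feedback inhibitors that limit it, were likewise mostly higher: of 31 tested, 17 rose and 2 fell (median log2 fold change 1.15; 8 to 20 rose when 1 library was left out, with 9 and 8 without control replicates 1 and 2). FOSL1, an AP-1 subunit gene, stood at 382 and 225 CPM with the combination, against 36.8 and 41.1 CPM in control cells (log2 fold change 2.96 ± 0.24, adjusted p = 0.00017). PHLDA1 stood at 278 and 253 CPM with the combination, against 73.5 and 69.8 CPM in control cells (log2 fold change 1.89 ± 0.14, adjusted p = 0.000124). The ETS factor gene ETV4 stood at 26.1 and 26.7 CPM with the combination, against 5.17 and 6.33 CPM in control cells (log2 fold change 2.19 ± 0.20, adjusted p = 0.000235). Both combination libraries were above both control libraries for all 3. Other AP-1 subunits went the opposite way: FOS had 54.6 and 35.6 CPM with the combination, against 292 and 263 CPM in control cells (log2 fold change -2.62 ± 0.23, adjusted p = 0.000231), and JUNB fell too (log2 fold change -1.71), while JUN rose on the log2 scale by 1.26. The feedback inhibitors SPRY2, SPRED1, DUSP5 and DUSP6 rose on the log2 scale by 1.47, 1.28, 1.90 and 1.63. The AP-1 letters TGANTCA lay in the promoter window of 2 of the 23 list members with one and of 9.37% of all genes with one. JUN and SPRED1 lost their calls when a library was left out (adjusted p up to 0.0906 and 0.133).

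Part of the extracellular matrix genes fell with the combination. Of 23 tested members of the fibrillar collagen and matrix list, 11 fell, none rose and 12 did not pass (median log2 fold change -0.69; 5 to 14 fell when 1 library was left out, 5 without control replicate 1). Of 20 tested basement membrane genes 8 fell, none rose and 12 did not pass (median -0.48), with 2 without control replicate 1 and 5 without control replicate 2. THBS1, which encodes the matrix glycoprotein thrombospondin-1, stood at 439 and 1081 CPM with the combination, against 4890.3 and 4578 CPM in control cells (log2 fold change -2.64 ± 0.34, adjusted p = 0.0014). FN1, fibronectin, stood at 1029 and 969 CPM with the combination, against 2695 and 2289 CPM in control cells (log2 fold change -1.32 ± 0.20, adjusted p = 0.00294). The combination libraries lay below the control libraries in both genes, and for THBS1 replicate 1 was the lower. COL4A1, a collagen of the basement membrane, stood at 570.0 and 519 CPM with the combination, against 1477 and 1351 CPM in control cells (log2 fold change -1.38 ± 0.17, adjusted p = 0.000995). SPARC, a collagen-binding protein, stood at 1865 and 1492 CPM with the combination, against 3776 and 3920.1 CPM in control cells (log2 fold change -1.20 ± 0.15, adjusted p = 0.00125). Here too both combination libraries were below both control libraries. COL1A1, of type I collagen, did not pass the test, with 46.1 and 48.98 CPM with the combination, against 76.7 and 58.98 CPM in control cells (log2 fold change -0.51 ± 0.17, adjusted p = 0.0672), although both combination libraries were the lower.

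Contractile and actin genes had the largest share of decreases among these lists. Many of them are targets of the MRTF and SRF pair or of YAP and TEAD, transcription factors that respond to actin tension. Of 29 tested, 15 fell and none rose (median -0.53; 8 to 15 fell when 1 library was left out, with 8 and 10 without control replicates 1 and 2). ACTA2, smooth muscle actin, stood at 13.2 and 13.9 CPM with the combination, against 48.4 and 56.2 CPM in control cells (log2 fold change -1.95 ± 0.17, adjusted p = 0.000214). MYL9, a myosin light chain, stood at 90.8 and 76.2 CPM with the combination, against 322 and 318 CPM in control cells (log2 fold change -1.94 ± 0.16, adjusted p = 0.000208). TAGLN, transgelin, stood at 1191 and 1096 CPM with the combination, against 3640.5 and 3602 CPM in control cells (log2 fold change -1.66 ± 0.17, adjusted p = 0.000429). The 2 combination libraries were close to each other and well below the controls in each. The YAP targets CCN1 and CCN2 fell (log2 fold changes -1.15 and -1.43). A CArG box, the sequence that SRF recognises, lay in the promoter window of 1.6% of all genes with one and of 6 of the 24 list members with one, of which 3 fell (ACTG1, CNN2 and MYLK). CCN1, CCN2 and MYLK lost their calls when a library was left out (adjusted p up to 0.168, 0.103 and 0.0712). The call of CCN1 was also lost without combination replicate 1 or either fucoidan library.

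The TGF-beta and BMP list split. Of 31 tested members 6 rose and 9 fell, with 7 to 10 falling when 1 library was left out and none rising without control replicate 1 or without control replicate 2. TGFB2, a TGF-beta ligand, stood at 117 and 138 CPM with the combination, against 485 and 482 CPM in control cells (log2 fold change -1.92 ± 0.17, adjusted p = 0.000231). ID3, a target of BMP signalling, stood at 7.06 and 11.4 CPM with the combination, against 115 and 111 CPM in control cells (log2 fold change -3.60 ± 0.31, adjusted p = 0.000214). Its relative ID2 stood at 5.73 and 3.06 CPM with the combination, against 31.3 and 33.7 CPM in control cells (log2 fold change -2.90 ± 0.27, adjusted p = 0.000275). Combination libraries were lower than control libraries in each. BMP4 and the inhibitor SMAD6 fell too (log2 fold changes -2.29 and -1.77), whereas BMP2, SMAD7 and the receptor genes TGFBR2 and ACVR1 rose (log2 fold changes 1.54, 0.88, 0.75 and 1.06). BMP2, SMAD7, TGFBR2 and ACVR1 lost their calls when a library was left out (adjusted p up to 0.249, 0.163, 0.146 and 0.151). The call of BMP2 was also lost without combination replicate 1 or either particulate library or either fucoidan library; that of SMAD7 was also lost without combination replicate 1.

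Epithelial and retinal pigment epithelium genes were more often lower than higher. Among 30 tested genes of the epithelial factor, keratin and junction list, 10 fell and 3 rose (6 to 12 fell when 1 library was left out, 6 without control replicate 1). KRT8 and KRT18, the paired keratins of simple epithelium, fell with log2 fold changes of -0.95 and -1.05. KRT8 stood at 1013 and 1088 CPM with the combination, against 2133 and 1933 CPM in control cells, and KRT18 at 567 and 677 CPM with the combination, against 1329 and 1254 CPM in control cells. KRT7, another keratin gene, stood at 629.9 and 1118 CPM with the combination, against 3458 and 2915 CPM in control cells (log2 fold change -1.87). For these keratins the groups were separate, with combination replicate 1 the lower of its pair. The 3 that rose, a share close to the 8.17% of all genes, were GRHL1, ZEB1 and SNAI1 (log2 fold changes 1.82, 0.90 and 1.33). ZEB1 and SNAI1 are known as repressors of epithelial genes, but any link to the lower keratins was not tested. None of the list rose without control replicate 1 or without control replicate 2. CDH1, the gene of E-cadherin, had 0.666 and 0.892 CPM with the combination, against 1.84 and 2.36 CPM in control cells (adjusted p = 0.0848). KRT8, KRT18, GRHL1, ZEB1 and SNAI1 lost their calls when a library was left out (adjusted p up to 0.066, 0.0575, 0.248, 0.218 and 0.162). The call of GRHL1 was also lost without combination replicate 2 or either particulate library; that of ZEB1 was also lost without combination replicate 1 or either fucoidan library; that of SNAI1 was also lost without combination replicate 1.

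Of 34 members of the retinal pigment epithelium list 21 had enough reads, of which 7 fell and 2 rose (median -0.72; 2 to 11 fell when 1 library was left out, 2 without control replicate 1 and 11 without combination replicate 1). RDH10, a retinol dehydrogenase of the visual cycle, stood at 49.1 and 44.7 CPM with the combination, against 275 and 269.6 CPM in control cells (log2 fold change -2.54 ± 0.17, adjusted p = 7.38e-05). MITF, the transcription factor of pigment cells, stood at 24.3 and 28.2 CPM with the combination, against 72.2 and 70.2 CPM in control cells (log2 fold change -1.44 ± 0.18, adjusted p = 0.00127). OTX2, another factor of the tissue, stood at 31.3 and 45.4 CPM with the combination, against 84.7 and 78.98 CPM in control cells (log2 fold change -1.09 ± 0.18, adjusted p = 0.00502). All 3 were lower in both combination libraries. BEST1, a chloride channel gene, rose on the log2 scale by 2.73, but its exons face those of FTH1 on the opposite strand, a gene that rose as well. Of 29 markers of other cell types 7 had enough reads, of which 3 fell (PDGFRB, GLUL and RBPMS), none rose and 4 did not pass; 1 to 3 fell when 1 library was left out. PDGFRB, a receptor typical of pericytes, had 46.98 and 33.3 CPM with the combination, against 255 and 216 CPM in control cells (log2 fold change -2.56 ± 0.20, adjusted p = 0.000124). The summed level of 3 pericyte markers, most of it PDGFRB, was 35.9 to 49.3 CPM with the combination and 220 to 259 CPM in control cells, whereas the pericyte marker RGS5 had 33 and 46 reads with the combination and 48 and 45 reads in control cells. Endothelial markers summed to 0.279 to 0.533 CPM with the combination and 0.192 to 0.283 CPM in control cells. The part of any other cell type in these results was not tested. OTX2 and BEST1 lost their calls when a library was left out (adjusted p up to 0.0636 and 0.064).

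Of 27 tested genes of cholesterol synthesis and uptake, 11 rose with the combination, none fell and 16 did not pass, with a median log2 fold change of 0.49. Leaving out 1 library gave 1 to 17 higher, with 8 without combination replicate 1 and 1 with either control library left out. HMGCS1 (chr5:43289395-43313512 in GRCh38), an early enzyme of cholesterol synthesis, stood at 373 and 283 CPM with the combination, 73.5 and 84.8 CPM with particulate, 459.9 and 472 CPM with fucoidan and 161 and 186 CPM in control cells. IDI1, an isomerase of the same route, stood at 242 and 197 CPM with the combination, 89.9 and 97.3 CPM with particulate, 198 and 205 CPM with fucoidan and 97.98 and 107 CPM in control cells. Both genes were lower in both particulate libraries than in both combination libraries. MSMO1, a sterol demethylation enzyme gene, stood at 543 and 308 CPM with the combination, 106 and 115 CPM with particulate, 391 and 384 CPM with fucoidan and 168 and 180.3 CPM in control cells. INSIG1, the protein that holds the sterol sensor in the endoplasmic reticulum, stood at 269 and 175 CPM with the combination, 57.3 and 67.8 CPM with particulate, 294 and 299.7 CPM with fucoidan and 137 and 141 CPM in control cells. In all 4 genes both combination libraries lay above the control and particulate libraries, and in HMGCS1 and INSIG1 they lay below the fucoidan libraries. HMGCS1, MSMO1 and INSIG1 were chosen by a rule that required no overlap between combination and particulate libraries. Against control, HMGCS1 had a log2 fold change of 0.92 ± 0.17 (adjusted p = 0.00832) and IDI1 of 1.10 ± 0.15 (adjusted p = 0.00191). For MSMO1 it was 1.29 ± 0.23 (adjusted p = 0.00668) and for INSIG1 0.67 ± 0.20 (adjusted p = 0.0477). HMGCS1, MSMO1 and INSIG1 lost their calls when a library was left out (adjusted p up to 0.113, 0.0913 and 0.246). The call of INSIG1 was also lost without combination replicate 1 or particulate replicate 2 or either fucoidan library.

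Against particulate alone, combination cells differed at 13 of 15010 genes (0.0866%), with 12 higher (0.0799%) and 1 lower (0.00666%), and the count at an unadjusted p under 0.05 was 2599. The number was 3142 without combination replicate 2 and 53 without combination replicate 1. It was 1 without particulate replicate 1, without fucoidan replicate 1 or without fucoidan replicate 2, and 0 without particulate replicate 2 or either control library, while DESeq2 gave 306. Of the 13, 4 were the cholesterol genes just described, with log2 fold changes of 2.05 ± 0.18 for HMGCS1 (adjusted p = 0.00967), 1.94 ± 0.24 for MSMO1 (adjusted p = 0.0249), 1.83 ± 0.21 for INSIG1 (adjusted p = 0.0249) and 1.23 ± 0.15 for IDI1 (adjusted p = 0.0252). TGFB2 stood at 117 and 138 CPM with the combination, 45.03 and 56.3 CPM with particulate, 483 and 419 CPM with fucoidan and 485 and 482 CPM in control cells (combination against particulate log2 fold change 1.33 ± 0.17, adjusted p = 0.0255). KRT80, an epithelial keratin gene, stood at 346 and 384 CPM with the combination, 154 and 172 CPM with particulate, 1127 and 1064 CPM with fucoidan and 1070.0 and 988 CPM in control cells (log2 fold change 1.17 ± 0.14, adjusted p = 0.0249). COL1A1 stood at 46.1 and 48.98 CPM with the combination, 14.1 and 14.2 CPM with particulate, 201 and 168 CPM with fucoidan and 76.7 and 58.98 CPM in control cells (log2 fold change 1.75 ± 0.18, adjusted p = 0.021). These 3 genes were higher with the combination than with particulate and lower than with fucoidan or in control cells, with no overlap between the combination libraries and any other library. Their difference from particulate was required by the choice of genes, and COL1A1 did not pass against control in edgeR (adjusted p = 0.0672). MYOCD, a coactivator of SRF, CDKN2B, which encodes the cell cycle inhibitor p15, PIK3IP1, an inhibitor of PI3 kinase, the adhesion scaffold gene NEDD9 and 1 gene named only by its identifier were also higher than with particulate. The gene that was lower was IL13RA2, a decoy receptor for interleukin-13, with 4.26 and 3.73 CPM with the combination, 12.8 and 12.5 CPM with particulate, 0.936 and 0.898 CPM with fucoidan and 1.70 and 1.28 CPM in control cells (log2 fold change -1.66 ± 0.23, adjusted p = 0.0372).

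**Figure D3:**
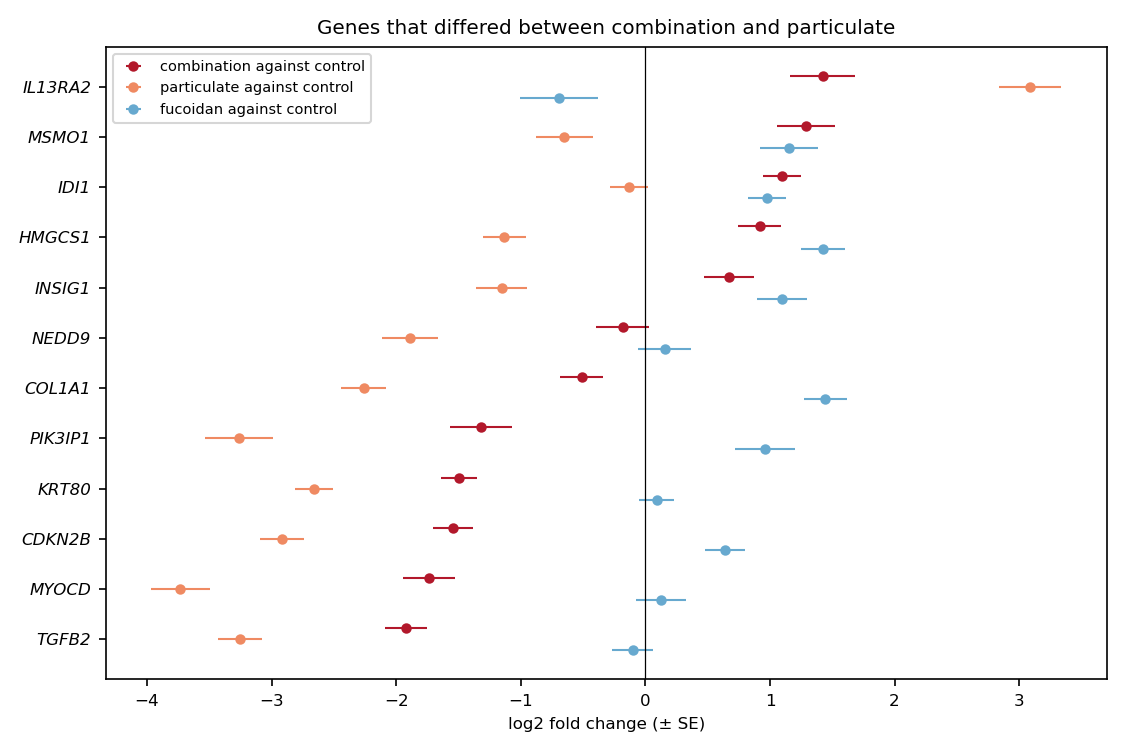
Log2 fold change against control (points, bars ± SE) of the 12 genes with a symbol among the 13 that differed between combination and particulate cells, in combination (red), particulate (orange) and fucoidan cells (blue), which share the control libraries. In 7 of the 12, TGFB2, MYOCD, CDKN2B, KRT80, PIK3IP1, COL1A1 and NEDD9, the combination value lies below 0 and above the particulate value. In the 4 cholesterol genes the combination value lies above 0 and the particulate value below 0. The gap between these 2 values was required by the choice of genes. Against control in edgeR, the combination did not pass for COL1A1 (adjusted p = 0.0672) or NEDD9 (adjusted p = 0.575). Particulate did not pass for MSMO1 (adjusted p = 0.0748) or IDI1 (adjusted p = 0.585).

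Against fucoidan alone, 3110 genes differed (20.7%), 1526 higher (10.2%) and 1584 lower (10.6%) with the combination; the number was 5227 without combination replicate 2, 794 and 942 without fucoidan replicates 1 and 2, and 1996 and 1994 without control replicates 1 and 2. The same fit gave 3089 genes for particulate against control, and 0 for fucoidan against control, where 662 had an unadjusted p under 0.05 in edgeR. The spread used for fucoidan against control was shared with the less even combination and particulate pairs. The 0 calls therefore do not show that fucoidan changed no gene, and the 662 are not a count of changed genes. These comparisons share libraries with that of combination and control, so their values are given side by side only. The median log2 fold change of the cholesterol list was 0.49 for the combination, -0.44 for particulate and 0.74 for fucoidan, each against control. That of the actin list was -0.53 for the combination, -1.10 for particulate and -0.04 for fucoidan. For the NRF2 list the medians were 0.81, 0.96 and 0.02 in the same order. Whether the joint change departed from the sum of the 2 single changes was tested gene by gene: 0 of 15010 genes (0%) passed in edgeR, with 668 at an unadjusted p under 0.05, 20 called by DESeq2, 2 called without combination replicate 1 and 851 called without combination replicate 2. For TGFB2 the departure was 1.43 ± 0.23 (adjusted p = 0.497) and for HMGCS1 0.62 ± 0.24 (adjusted p = 0.897) on the log2 scale, and a p that misses the threshold does not show that the changes add up.

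The 2 combination libraries disagreed over glycolysis and hypoxia genes. Their tested list had 34 members, of which 33 were higher in combination replicate 1 than in replicate 2, and its mean log2 CPM was 8.64 in combination replicate 1 and 6.63 in combination replicate 2, against 7.39 and 7.30 in the control libraries. In the full fit 1 member rose, the hexokinase gene HK1 (log2 fold change 1.29), and none fell; 24 rose and 1 fell without combination replicate 2, and 1 rose and 12 fell without combination replicate 1. NDRG1, a gene induced by hypoxia, stood at 2579 and 115 CPM with the combination, against 195 and 167 CPM in control cells (log2 fold change 2.90 ± 1.05, adjusted p = 0.0877). HK2, another hexokinase, stood at 672 and 52.1 CPM with the combination, against 59.7 and 51.4 CPM in control cells (log2 fold change 2.70 ± 0.93, adjusted p = 0.0733). VEGFA, the angiogenic growth factor, stood at 1088 and 219 CPM with the combination, against 217 and 175 CPM in control cells (log2 fold change 1.74 ± 0.62, adjusted p = 0.0838). In each gene replicate 1 was several times the controls and replicate 2 was near them. No direction is given for this list, and PLIN2, a lipid droplet coat gene that passed the test (479 and 105 CPM with the combination, against 72.3 and 78.1 CPM in control cells; log2 fold change 1.96 ± 0.56, adjusted p = 0.0409), was uneven in the same way. HK1 and PLIN2 lost their calls when a library was left out (adjusted p up to 0.174 and 0.247). The call of PLIN2 was also lost without combination replicate 1 or either particulate library or either fucoidan library. The hypoxia response element core ACGTG lay in the window of 24.9% of all genes, 32% of tested genes and 20 of the 31 list members with a window.

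CYP1A1 and CYP1B1, targets of the aryl hydrocarbon receptor, were higher in combination replicate 2 than in replicate 1. In their list 5 of the 12 tested members were higher in replicate 1, and its member NQO1 is also counted in the NRF2 list. CYP1A1, the xenobiotic-metabolising enzyme that serves as the standard target, had 2.13 and 17.8 CPM with the combination, against 2.27 and 2.30 CPM in control cells (log2 fold change 2.14 ± 0.75, adjusted p = 0.0793). CYP1B1 stood at 6.26 and 55.00 CPM with the combination, against 7.93 and 6.26 CPM in control cells (log2 fold change 2.12 ± 0.74, adjusted p = 0.0771). Combination replicate 1 was at the level of the controls for both, and replicate 2 was several times above it. Without combination replicate 1 the adjusted p was 0.000146 for CYP1A1 and 6.64e-05 for CYP1B1. TIPARP, a target that limits the receptor, was even, with 186 and 199 CPM with the combination, against 53.4 and 49.5 CPM in control cells (log2 fold change 1.90 ± 0.15, adjusted p = 0.000161). Of 12 tested list members 3 rose (TIPARP, NQO1 and STC2) and 2 fell, ALDH3B1 and FOXQ1 (log2 fold changes -1.73 and -1.83); 2 to 6 rose when 1 library was left out, 5 and 6 without combination replicates 1 and 2. STC2 lost its call when a library was left out (adjusted p up to 0.084).

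**Figure D4:**
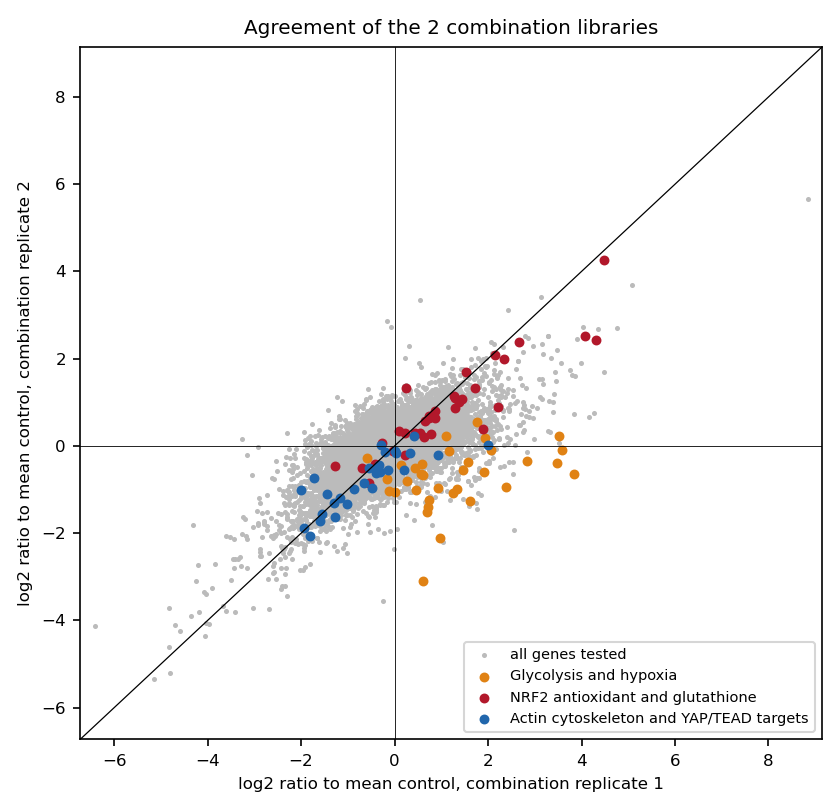
Log2 ratio of each tested gene to the mean of the 2 control libraries (CPM plus 0.5), combination replicate 1 on the x axis and combination replicate 2 on the y axis; the diagonal marks equal values. Most antioxidant genes (red) lie above 0 and most actin genes (blue) below 0 on both axes, and 33 of the 34 glycolysis and hypoxia genes (orange) lie to the lower right of it.

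Cell cycle and respiratory genes gave few calls in the full fit. Of 32 tested mitosis genes 3 fell and none rose (log2 fold changes: KIF20A -1.34, PLK1 -0.64 and CCNB1 -0.64), and 13 fell without combination replicate 2 and 1 with either control library left out. KIF20A, a mitotic kinesin gene, stood at 82.8 and 114 CPM with the combination, against 247 and 253 CPM in control cells (log2 fold change -1.34 ± 0.17, adjusted p = 0.00136), whereas the proliferation marker MKI67 had 223 and 377 CPM with the combination, against 428 and 373 CPM in control cells (adjusted p = 0.304) with overlapping groups. Of 34 DNA replication genes 1 rose, ORC6 (log2 fold change 0.84), and none fell. In that list 4 rose and 0 fell without combination replicate 1, 1 rose and 14 fell without combination replicate 2, and 0 rose and 0 fell with either control library left out. None of 31 nuclear genes of the respiratory chain and none of 35 ribosomal protein genes passed, and 1 of 13 mitochondrially encoded mRNAs rose. Among 32 p53 targets and apoptosis genes 6 rose and 8 fell: PMAIP1, which encodes the pro-apoptotic protein NOXA, rose (43.7 and 28.4 CPM with the combination, against 8.99 and 9.39 CPM in control cells; log2 fold change 1.97 ± 0.25, adjusted p = 0.00131), BAX, BBC3 and DDB2 fell (log2 fold changes -0.56, -0.89 and -1.06), and CDKN1A, the cell cycle inhibitor p21, had 644 and 431 CPM with the combination, against 540.5 and 495 CPM in control cells (adjusted p = 0.867). Without control replicate 1 the list gave 1 that rose and 1 that fell, and without control replicate 2 it gave 1 and 4. PLK1, CCNB1, ORC6, BAX, BBC3 and DDB2 lost their calls when a library was left out (adjusted p up to 0.139, 0.201, 0.14, 0.208, 0.13 and 0.0556). The call of CCNB1 was also lost without combination replicate 1 or particulate replicate 1 or either fucoidan library; that of BAX was also lost without combination replicate 1 or either fucoidan library.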

How the data were processed

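Polyadenylated RNA from 8 ARPE-19 cultures (2 per group, described by the submitters as independent biological replicates) was sequenced as paired reads from a stranded kit, per the labels' protocols. The tools named in the submitters' processing notes are bcl2fastq, fastp 0.20.0, FastQC 0.11.9, HISAT2 2.1.0, featureCounts and Subread 2.0.1, and the genome build is GRCh38. The deposited table holds raw read counts and TPM (length-scaled abundances) that the authors computed for 60623 genes. No read was seen for 33419 of them. The annotation release, the use of strand and the treatment of multiply matched reads were not given in the sources used here. Symbols were taken from a gene name table by Ensembl identifier (60295 matched), and gene coordinates and overlaps from GENCODE (GRCh38).

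The deposited counts were fitted with edgeR 4.0.16 (quasi-likelihood test, TMM scaling, filterByExpr, 15010 genes kept) in R 4.3.3, with 1 mean per group over all 8 libraries and 4 residual degrees of freedom. CPM are counts over TMM-scaled library sizes of the genes kept. A gene was called at an adjusted p under 0.05 (Benjamini-Hochberg over all genes). Standard errors were derived from the log2 fold change and the F statistic. Where a group had few reads they can be smaller than counting error alone. Counts limit precision at low levels, and intervals cover counting error only. Alternatives used DESeq2 1.42.0 and limma 3.58.1 (limma on log2(TPM + 1) or with voom weights), other scaling and filters, fewer libraries and a replicate block. The fitting code was tested on 1 simulated data set in which 200 of 15010 genes changed with the combination. It called 164 genes against control, of which 17 were unchanged, and found 47% of the 2-fold and 100% of the 4-fold changes. The 17 are a larger share of the 164 than the threshold of 0.05 is meant to allow. Simulated replicates varied alike in every group. The real combination pair was far less even than the control pair, with 11.3% against 1.61% of genes 2-fold or more apart. These error and detection rates therefore do not carry over to the real comparison.

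The compared groups and the gene lists were chosen with earlier results of these data known. A gene can be a member of more than 1 list. Genes were named by rule: the 12 largest changes in each direction among called genes that averaged 5 CPM or more over the 8 libraries and whose groups did not overlap, the 5 largest in the other comparisons, up to 4 called members of each list with the smallest p, and a fixed panel; other members are named as examples chosen after their values were seen. Some genes that the rule names are not reported here. Promoter windows are from RefSeq (GRCh38.p14); the CArG box and the sterol element were added after values were seen, and the sterol element TCACNCCAC lay in 1 of 21 cholesterol genes with a window and in 1.39% of all genes.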

Additional observations from a re-analysis of the deposited data

How the results depend on the processing

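With 2 libraries per group the calls rested on single libraries. Between combination and control, the fit on the combination and control libraries alone gave 1026 calls (432 higher and 594 lower, against 1226 and 1330), fitting without a filter on low counts gave 2002 higher, and voom with quality weights gave 872 lower; DESeq2 gave 2562 calls and limma on log2(TPM + 1) gave 1913. Against particulate, in place of 13 calls (12 higher and 1 lower), DESeq2 gave 306 (260 higher, 46 lower), the fit without a filter 1197 (961 higher, 236 lower), limma on log2(TPM + 1) 5 (5 higher, 0 lower) and voom 4 (4 higher, 0 lower). For the departure from additivity, in place of 0, DESeq2 gave 20 (18 higher, 2 lower) and the fit without a filter 156 (148 higher, 8 lower). Same-numbered libraries did not deviate together from their group means (correlation 0.08 between combination and control, -0.22 between combination and particulate, -0.25 to 0.08 over all pairs of groups). The negative values mean that libraries with unlike numbers deviated together in part. Whether libraries of different groups shared a batch was not tested. The replicate block gave 1872 calls against control, 2553 against fucoidan and 3 (3 higher, 0 lower) against particulate. With the numbers of the particulate libraries swapped, a crossed block chosen after seeing the data gave 63 calls against particulate (55 higher, 8 lower) and 3017 against control.

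Leaving out each library in turn gave 428 to 4999 calls against control (112 to 2613 higher, 316 to 2386 lower), 0 to 3142 against particulate (0 to 1847 higher, 0 to 1295 lower), 794 to 5227 against fucoidan (244 to 2699 higher, 550 to 2528 lower) and 0 to 851 for the departure (0 to 555 higher, 0 to 296 lower). A lone library was then assumed to vary like the other groups. The cause of these differences was not tested.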

Other observations

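Genes that remodel matrix went both ways with the combination: of 21 tested metalloproteinases and inhibitors 4 rose and 7 fell. TIMP3, a matrix-bound inhibitor of metalloproteinases, stood at 395 and 301 CPM with the combination, against 1543 and 1493 CPM in control cells (log2 fold change -2.12 ± 0.17, adjusted p = 0.000141). ADAMTS5, an aggrecan-cleaving protease gene, stood at 21.99 and 30.6 CPM with the combination, against 173 and 159 CPM in control cells (log2 fold change -2.65 ± 0.20, adjusted p = 0.000124). Both combination libraries were below both control libraries in each. Among 35 tested enzymes and core proteins of heparan sulfate and other glycosaminoglycans, 6 rose and 7 fell, including SULF1, which removes sulfate from heparan sulfate, with 6.06 and 4.63 CPM with the combination, against 24.9 and 23.6 CPM in control cells (log2 fold change -2.19 ± 0.21, adjusted p = 0.000301). NDST1, which adds it, stood at 260.2 and 279 CPM with the combination, against 585 and 536 CPM in control cells (log2 fold change -1.06 ± 0.16, adjusted p = 0.00263). Of 25 tested integrin and adhesion genes 3 rose and 6 fell, ITGA2, a collagen receptor subunit, having 33.99 and 22.6 CPM with the combination, against 4.67 and 4.66 CPM in control cells (log2 fold change 2.60 ± 0.33, adjusted p = 0.00123). When 1 library was left out, 0 to 6 rose and 3 to 8 fell in the metalloproteinase list, 0 to 10 rose and 4 to 8 fell in the glycosaminoglycan list and 1 to 5 rose and 1 to 6 fell in the integrin list, each lowest number being reached with a control library left out and, for integrin genes that rose, also with a fucoidan library left out.

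Among 18 tested clock genes 4 fell and 2 rose; DBP, a clock output factor, stood at 2.87 and 2.12 CPM with the combination, against 18.8 and 16.5 CPM in control cells (log2 fold change -2.83 ± 0.23, adjusted p = 0.000161). Its relative TEF stood at 11.8 and 10.1 CPM with the combination, against 26.2 and 25.4 CPM in control cells (log2 fold change -1.24 ± 0.17, adjusted p = 0.00163), with no overlap of the groups. Of 40 tested autophagy and lysosome genes 7 rose and 3 fell, SQSTM1, the cargo receptor p62, standing at 2534 and 1943 CPM with the combination, against 784 and 751 CPM in control cells (log2 fold change 1.54 ± 0.16, adjusted p = 0.000504). Of 24 tested interferon genes 4 fell and 1 rose; IFIT1, an antiviral effector, stood at 3.87 and 11.4 CPM with the combination, against 32.1 and 33.7 CPM in control cells (log2 fold change -2.09 ± 0.37, adjusted p = 0.00641), with an adjusted p of up to 0.0531 when 1 library was left out. Of 19 tested angiogenic factors 4 rose and 7 fell, FGF1 having 9.46 and 11.6 CPM with the combination, against 40.7 and 46.6 CPM in control cells and NRP1, a co-receptor for VEGF, having 78.9 and 93.9 CPM with the combination, against 25.8 and 30.1 CPM in control cells. None of 12 liver X receptor targets and none of 10 scavenger and pattern receptors passed in edgeR, and of 31 proteasome subunits 2 rose. When 1 library was left out, 0 to 9 rose and 2 to 6 fell in the clock list, 2 to 12 rose and 1 to 3 fell in the autophagy list, 0 to 2 rose and 0 to 9 fell in the interferon list and 2 to 6 rose and 3 to 8 fell in the angiogenic list.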
